A study of Homo sapiens with 24 samples.

Results

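The 8 libraries of the SoF line were compared with the 8 libraries of the wt line, with treatment time held as a block, to find the genes that followed the line at every time. These were 16 of the 24 libraries of the series, chosen by the line and time that each column of the exon count table names. Both lines were U2OS, a human osteosarcoma cell line with very little endogenous glucocorticoid receptor (GR), and both stably expressed GR with a C-terminal HaloTag, a tag that binds fluorescent dyes. The wt line carried wild-type GR (wt GR-HaloTag), and the SoF line carried the K492A mutant, made to bind RNA less. In vitro the K492A domain also bound DNA less, by a smaller factor than for RNA. The Ctrl line carried the R470A mutant, with reduced DNA binding and RNA affinity like wild type. It was the study's control for the DNA loss and is used here only as a reference. In all lines the receptor sat on an integrated PiggyBac plasmid with a CMV promoter and puromycin selection, and fractions were taken by HaloTag dye to match nuclear GR between lines. Each line was 1 sorted pool, so the mutation and the pool cannot be told apart, and nothing in the labels says that the 2 libraries per line and time came from separate cultures, so p-values may measure technical spread alone. Cells in medium with charcoal-stripped serum were kept in 0.01% ethanol (0 h) or in 100 nM of the synthetic glucocorticoid dexamethasone for 1, 2 or 3 h. For the last hour 200 µM 4-thiouridine was present. Thiouridine-labelled, newly made RNA was isolated and sequenced (4sU-seq).

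GR is a nuclear receptor that waits in the cytoplasm with chaperones until a glucocorticoid binds it. It then enters the nucleus, binds DNA as a dimer at glucocorticoid response elements, and raises or lowers transcription of nearby genes. Hsp90 and its partners hold the receptor ready, and coactivators and corepressors such as NCOA1 and NRIP1 act with it on chromatin.

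Total counts ran from 9056350 to 13410755 in the SoF line and from 11506147 to 15820806 in the wt line. Markers fixed for this tissue fitted a mesenchymal line in part: VIM, FN1, SPARC and RUNX2 were abundant, whereas TWIST1 and COL1A2 were at or near 0. The 9 mesenchymal markers summed to 2007 to 4555 CPM (the library-size-scaled share of counts) in SoF and 2313 to 4492 CPM in wt. The 5 leukocyte markers summed to at most 2.87 CPM in SoF and 1.58 CPM in wt, and CDKN2A, silenced in U2OS, reached at most 0.0632 CPM. Markers of other tissues were not absent. The 6 epithelial markers summed to 12.2 to 27.1 CPM in SoF and 12.7 to 30.0 CPM in wt. The 4 neural markers held 25.0 to 35.6 and 25.7 to 44.7 CPM, and the 4 endothelial markers 4.74 to 9.13 and 2.97 to 8.49 CPM. The variance between the 2 libraries of a line and time, as chi-square per degree of freedom, was 6.28 to 22.7 times what counting alone gives. This is a mean over genes with at least 20 counts, so replicate spread exceeded counting on the mean. It does not show this for genes of low level.

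NR3C1, the gene of GR itself (chr5:143277931-143435512, hg38), was higher in SoF GR cells at every time. Its level in the SoF libraries was 2838 and 2441 CPM at 0 h, 6141 and 5288 at 1 h, 1946 and 1790 at 2 h, and 1131 and 1133 at 3 h. In the wt libraries it was 550.0 and 836 CPM at 0 h, 1310 and 1616 at 1 h, 464 and 707 at 2 h, and 338 and 368 at 3 h. Both lines peaked at 1 h, and the lines did not overlap at any time. The time-adjusted log2 difference was 1.81 (SE 0.10, edgeR quasi-likelihood test, adjusted p = 1.3e-10), and it lay between 1.67 and 1.97 at the single times. Reads of the endogenous gene and the introduced copy are counted together, so the difference describes their sum. In the Ctrl line the mean was 3503 CPM, and a fit of all 24 libraries gave a log2 difference of -0.37 for SoF minus Ctrl (SE 0.10) and of 2.18 for Ctrl minus wt (SE 0.10).

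Of 23430 genes tested across the 16 libraries, 6071 were called at an adjusted p under 0.05 (25.9%), with 2995 higher in SoF (12.8%) and 3076 lower (13.1%). The median absolute log2 difference of the called genes was 0.44, and 572 genes were called higher (2.44%) and 142 lower (0.606%) by at least 1 on the log2 scale. The count rested on the time block. A fit without it called 1142 genes, whereas DESeq2 with the block called 6154. It rested as much on counting 8 libraries a line as separate. Replicate deviations of same-numbered libraries of 1 line correlated across genes between times, with r from 0.0403 to 0.443 over 6 pairs of times in SoF and from -0.0645 to 0.297 in wt, so the 4 times of a number may be 1 series. With the counts summed over times by line and number, 2 series against 2, 1199 genes were called, 660 higher and 539 lower. This alternative was chosen after the data were seen and is called the summed fit from here on. Its counts in lists are to be set beside these 660 and 539 of 23430 genes, not beside the main shares. All 24 of the named genes of largest change passed the summed fit. Of the called genes, 5749 (94.7%) had the same sign at all 4 times, against 47.1% of all genes tested, the called ones included. The calls rest on the same libraries as these signs, so much of the agreement follows from the selection.

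A gene was said to follow the line when it was called and both SoF libraries lay above, or both below, the 2 wt libraries at each of the 4 times. Separation at every time, called or not, held for 1872 genes (7.99%), and with the call for 1828 genes (7.8%), of which 914 were higher (3.9%) and 914 lower (3.9%). The stricter pattern, all 8 SoF libraries above all 8 wt libraries, held for 154 genes (0.657%), and all 8 below for 107 (0.457%). Following genes were not fixed in level, since a time effect was called in 1128 of them (61.7%) against 47.5% of the other genes. By type, 70.8% of following genes were protein coding, against 62.5% of all genes tested.

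The difference between lines was then tested for a change with time. No gene passed the line by time test (edgeR quasi-likelihood, adjusted p under 0.05), 267 genes had an unadjusted p under 0.05 (1.14%), and DESeq2 also called 0 with 135 such genes. Evenly spread p-values would put 1171.5 genes under 0.05, so both tests looked conservative, and 0 calls say little about constancy. The smallest unadjusted p were those of the mitochondrial tRNA gene MT-TV (0.000625), ENSG00000230021.10 (0.000695) and the tRNA gene MT-TY (0.000777). Tested at single times in the same edgeR fit, with 2 libraries a side, 79 genes were called at 0 h (0.337%), 49 at 1 h (0.209%), 63 at 2 h (0.269%) and 44 at 3 h (0.188%). These counts moved strongly with single libraries, up to 2286 at 0 h without SoF replicate 1 of 0 h and down to 17 without wt replicate 1 of 0 h. Only 20 genes were called at each time, 18 higher and 2 lower (GLUL and SYNPO2L). A gene that missed the line by time test is not thereby shown to differ equally at all times.

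ZNF597, an imprinted zinc finger gene (chr16:3432414-3443504), was among the genes furthest apart. Its level was 5.91 to 9.15 CPM in the 8 SoF libraries (median 7.96) and 0.739 to 1.58 CPM in the 8 wt libraries (median 1.22), a log2 difference of 2.66 (SE 0.14). Every SoF library lay above every wt library, and the log2 difference at single times ran from 2.33 to 2.86. The Ctrl line had less ZNF597 than either, with a mean of 0.461 CPM, which put SoF minus Ctrl at 4.04 and Ctrl minus wt at -1.38 in the fit of all lines.

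ENOSF1, a mitochondrial enzyme gene at the start of chromosome 18 (chr18:670318-712662), held 6.29 to 12.6 CPM in SoF (median 9.46) and 1.12 to 2.19 CPM in wt (median 1.67). Its log2 difference was 2.45 (SE 0.14). TYMS, which lies on the opposite strand beside it, did not pass the test, with a mean of 164 CPM in SoF and 165 CPM in wt. ANXA10, a calcium-dependent membrane-binding annexin, ran from 5.88 to 9.16 CPM in SoF and from 1.17 to 2.25 CPM in wt (log2 2.39, SE 0.15). SHISA9, an auxiliary subunit of AMPA receptors, ran from 7.98 to 21.1 CPM in SoF and from 2.75 to 6.10 CPM in wt (log2 1.74, SE 0.12). For ENOSF1, ANXA10 and SHISA9 the lowest SoF library exceeded the highest wt library.

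Noncoding RNAs took 6 of the 12 higher places. LINC02474 had the largest difference of the named genes (log2 3.6, SE 0.33), but its SoF libraries fell into separate levels by replicate number. The SoF libraries numbered 1 held 18.1, 21.2, 25.0 and 26.0 CPM from 0 to 3 h, and those numbered 2 held 8.67, 9.14, 8.65 and 7.67 CPM. All 8 lay above the wt libraries, whose highest value was 2.34 CPM. LINC02582 (log2 2.56), LINC01029 (1.5), PRECSIT (1.41), LINC02970 (1.39) and SND1-IT1 (1.36) were the others. LINC01029 was the most abundant of them, with 85.1 to 194.7 CPM in SoF and 23.9 to 85.8 CPM in wt, so that the lines overlapped across times but not within one.

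GLUL, the gene of glutamine synthetase (chr1:182378098-182392206), showed the largest drop among the named genes. The SoF libraries held 0.517 and 0.706 CPM at 0 h, 0.591 and 0.719 at 1 h, 0.810 and 0.728 at 2 h, and 1.96 and 1.47 at 3 h. The wt libraries held 7.52 and 6.25 CPM at 0 h, 10.4 and 5.79 at 1 h, 11.7 and 9.61 at 2 h, and 11.8 and 11.5 at 3 h. Every SoF library was below every wt library, and the log2 difference was -3.33 (SE 0.18). Ctrl was also far below wt for GLUL (log2 -2.34, SE 0.18), and SoF was below Ctrl (log2 -0.96, SE 0.24).

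The other lower genes fell into a few kinds. Cytoskeletal, stress and phosphatase-fold genes were among them: SYNPO2L, an actin-binding protein of the Z disc (log2 -1.14, SE 0.09), HSPB2, a small heat shock protein (-1.39, SE 0.17), and STYXL2, a pseudophosphatase (-1.20, SE 0.16). SYNPO2L held 9.57 to 19.3 CPM in SoF and 28.8 to 44.2 CPM in wt, with no overlap. Protease and protease inhibitor genes were KLK6, a kallikrein (-1.17, SE 0.18), and SERPINB7, a serpin (-1.54, SE 0.17). Cell surface genes were CHRM3, the M3 muscarinic receptor (-1.13, SE 0.12), SLAMF7, an immunoglobulin-type receptor of leukocytes (-1.03, SE 0.13), and PCDHB13. EFR3B, which anchors a lipid kinase at the plasma membrane, also fell (-1.04, SE 0.14). These kinds were named after the values were seen.

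**Figure D1:**
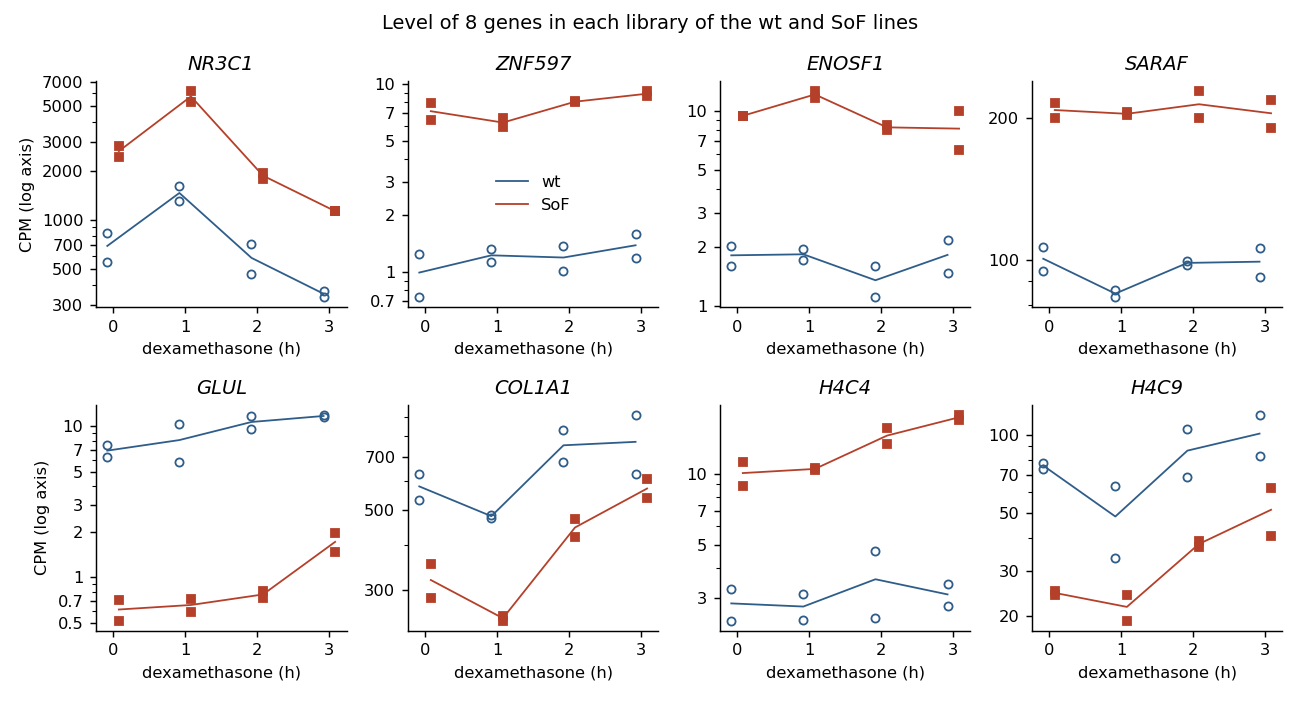
Level of 8 genes in CPM (log axes) in each library of the wt line (open circles) and the SoF line (filled squares) against hours of dexamethasone, with 0 h in ethanol; lines join the means of the 2 libraries. NR3C1, ZNF597, ENOSF1, SARAF and H4C4 lay higher in SoF at all 4 times, and GLUL, COL1A1 and H4C9 lay lower.

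The log2 differences of the 24 named genes at each single time are plotted with their standard errors. LINC02970 ranged most, from 0.72 at 0 h to 2.06 at 2 h. KLK6 lay between -0.56 at 2 h and -1.57 at 3 h, and GLUL at 3 h (-2.76, SE 0.30) lay closest to 0 of its 4 values. All 24 were required to lie apart in the same direction at every time, so their signs could not change.

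**Figure D2:**
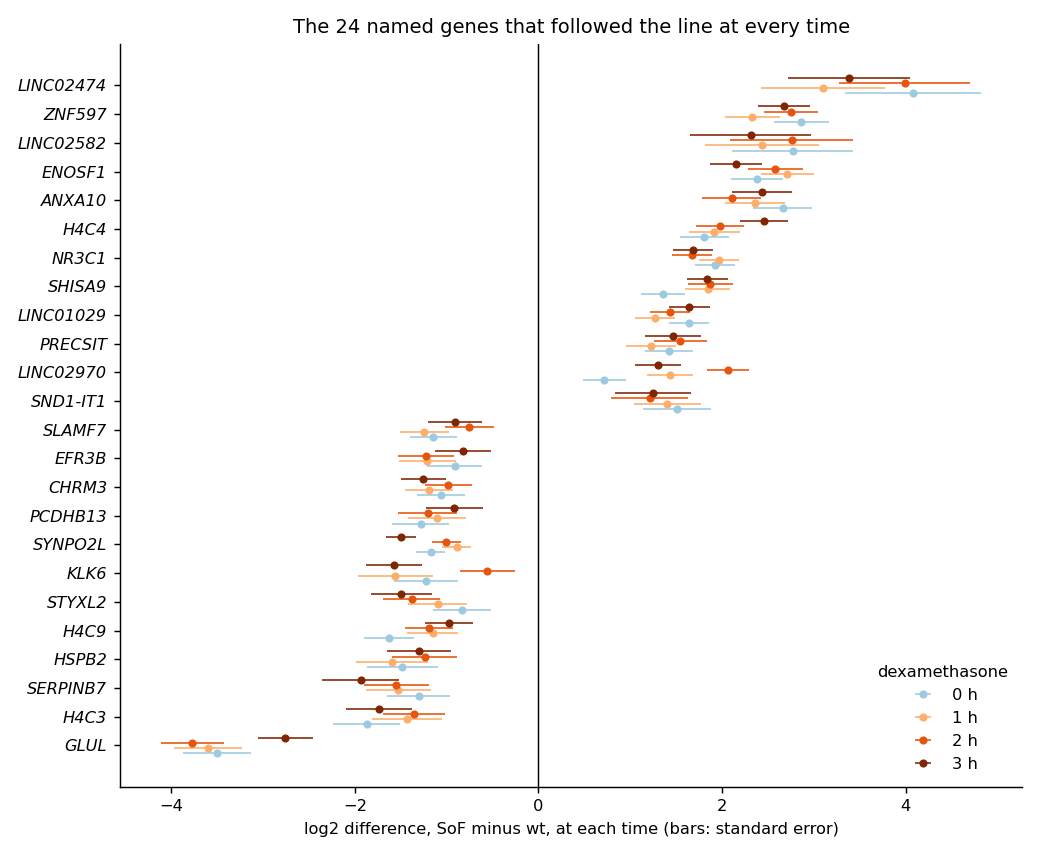
Log2 difference, SoF minus wt, of the 12 higher and 12 lower named genes at 0, 1, 2 and 3 h, with bars of 1 standard error from the fit of line and time groups (2 libraries each). Every point of the higher genes lies right of 0 and every point of the lower genes left of it, which the rule that named them required.

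A run of neighbouring genes on the short arm of chromosome 8 carried many of the clearest differences. It was picked after the values were seen, from TRIM35 (start 27284886) to ENSG00000272375.1 (start 30197404), a span of 2.91 Mb. Of its 34 tested genes 29 were higher, 0 were lower and 23 followed the line, with a median log2 difference of 0.92. Over all genes 12.8% were higher, 13.1% were lower and 3.9% followed upward. The medians at 0, 1, 2 and 3 h were 0.82, 1.00, 0.95 and 0.95. Summed over the run, the SoF libraries held 1551 to 1701 CPM and the wt libraries 879.9 to 1062 CPM. Of the 34, 26 were higher in the summed fit and 0 lower. Of the genes on either side, 2 of the 20 tested before it were higher and 2 lower (median 0.04), and 1 of the 20 after it was higher and 2 lower (median 0.02).

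Its genes differ in known function. SARAF, which restrains store-operated calcium entry, held 190.5 to 227.5 CPM in the SoF libraries and 83.5 to 106 CPM in the wt libraries (log2 1.12, SE 0.06). HMBOX1, a homeobox protein that binds telomeres, held 97.1 to 162 CPM in SoF and 42.2 to 61.1 CPM in wt (log2 1.28, SE 0.08). DCTN6, a dynactin subunit, held 50.4 to 84.0 CPM in SoF and 26.8 to 32.6 CPM in wt (log2 1.24, SE 0.08). The lines did not overlap in SARAF, HMBOX1 or DCTN6. By RT-qPCR of total RNA, the study also reports HMBOX1, SARAF and DCTN6 higher in SoF than in wt and Ctrl cells. That held in ethanol and at 3 h of dexamethasone. The study named these genes, and LINC01029, on the same libraries, so their counts here are not independent evidence of a direction. LEPROTL1 (log2 1.18), the Integrator subunit INTS9 (1.15), the kinesin KIF13B (0.96), the Elongator subunit ELP3 (0.85) and the heparan sulfate transferase EXTL3 (0.77) were higher as well. RBPMS, just past the end of the run, was lower (log2 -0.46, SE 0.11), but not in the summed fit. Copies of a region per cell and transcription per copy cannot be told apart in RNA counts, here or in the windows below.

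In the fit of 24 libraries, which shares the SoF and wt libraries with the comparison above, the run had a median of 1.13 for SoF minus Ctrl, with 30 of 32 tested genes called, and of -0.18 for Ctrl minus wt, with 9 called. Of all genes in that fit, 12.1% were called for SoF against Ctrl and 17.3% for Ctrl against wt.

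**Figure D3:**
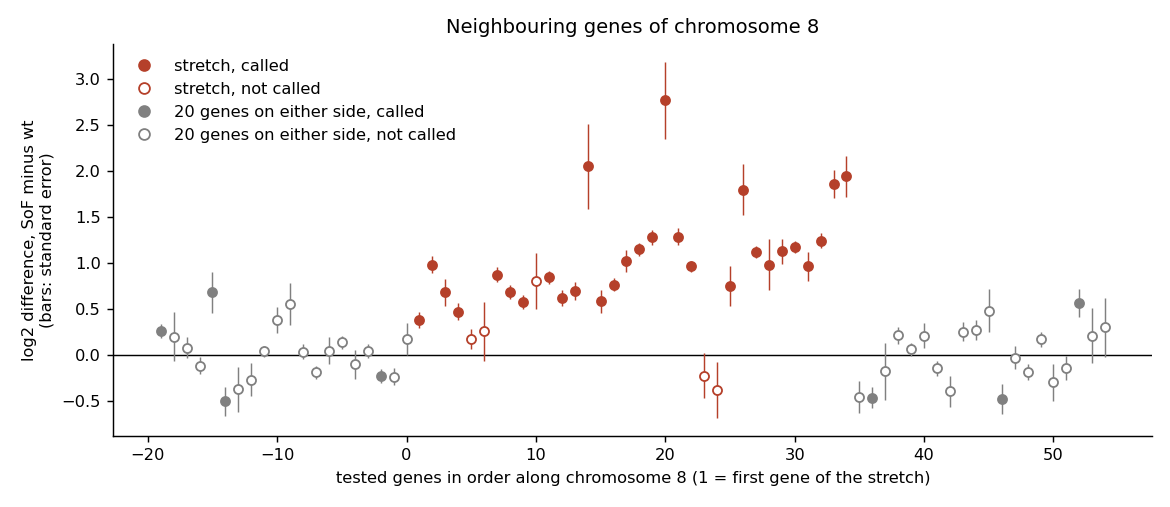
Log2 difference, SoF minus wt, time adjusted, with bars of 1 standard error, for the 34 tested genes of the chromosome 8 run (red) and the 20 tested genes on either side (grey), in order along the chromosome; filled points passed the test. The run has 29 filled points, all above 0, and the flanks scatter about 0.

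Elsewhere genes that followed the line were also uneven along the genome. The share of tested genes that followed and were higher was 8.89% on chromosome 7, 8.75% on chromosome 18, 7.73% on chromosome 20 and 7.40% on chromosome 8, beside 3.9% over all chromosomes. Over all genes tested 12.8% were called higher and 13.1% lower. In 10-Mb windows with at least 20 tested genes (298 windows), chromosome 7 from 90 to 100 Mb had 58 of 95 genes higher and 0 lower, and from 80 to 90 Mb 17 of 24 higher and 0 lower. ZNF655 (log2 0.80), the proteasome subunit SEM1 (0.77), the paraoxonase PON2 (0.60), the cyclin-D-binding factor DMTF1 (0.62) and the replication kinase subunit DBF4 (0.39) were in these windows. On chromosome 3, 19 of 35 genes were higher from 160 to 170 Mb and 20 of 40 from 170 to 180 Mb, with MYNN (0.68), the translocon protein SEC62 (0.67), the Polycomb protein PHC3 (0.75), phospholipase PLD1 (0.82) and FNDC3B (0.57). The medians of these 4 windows lay between 0.36 and 0.45 for SoF minus wt and between -0.14 and 0.00 for Ctrl minus wt. In the summed fit 10 and 24 genes were higher in the chromosome 7 windows and 9 and 13 in those of chromosome 3. That fit called 660 of 23430 genes higher.

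Of all genes tested 13.1% were called lower. Windows rich in lower genes were on chromosome 9 from 130 to 140 Mb (74 of 151 lower, 1 higher) and chromosome 14 from 100 to 110 Mb (39 of 86 lower, 1 higher). The receptor gene NOTCH1 (log2 -0.62) and RAPGEF1 (-0.52) lay in the first, and the dynein heavy chain DYNC1H1 (-0.46), the kinase gene MOK (-0.86) and HSP90AA1 (-0.42) in the second. With GC and length offsets 49 and 32 genes were lower there, and in the summed fit 18 and 12. Of all 23430 genes these fits called 3071 and 539 lower. The other windows named by rule were chromosome 21 from 10 to 20 Mb (11 of 22 higher, 1 lower), chromosome 22 from 50 to 60 Mb (13 of 30 lower), chromosome 5 from 140 to 150 Mb (53 of 147 lower, 16 higher), which holds the protocadherin arrays, and the mitochondrial genome (16 of 37 lower, 1 higher).

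Most clustered protocadherins were lower in SoF. These are cadherin-family adhesion proteins encoded in the PCDHA, PCDHB and PCDHG arrays on chromosome 5, where a choice among many promoters gives each neuron its own surface identity. Of 53 tested members 49 were lower in SoF, 0 higher, and 25 followed the line, whereas 13.1% of all genes were lower and 3.9% followed downward. The median log2 difference was -0.46, against -0.01 over all genes tested. By array, 15 of 16 PCDHA, 13 of 15 PCDHB and 21 of 22 PCDHG genes were lower. Their levels summed to 278 to 349 CPM in the SoF libraries and 381 to 490.0 CPM in the wt libraries, so the lines did not overlap.

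PCDHB15 (log2 -1.44, SE 0.18), PCDHB9 (-1.28, SE 0.20) and PCDHB13 (-1.13, SE 0.15) had large differences. PCDHB13 held 2.55 to 4.84 CPM in SoF and 6.18 to 10.9 CPM in wt, and PCDHB15 held 0.517 to 1.78 CPM in SoF and 2.11 to 4.85 CPM in wt. The 2 sets of 8 libraries were separate for each of these genes. PCDHB4 (0.24), PCDHA14 (-0.15), PCDHB3 (-0.17) and PCDHGB5 (-0.23) did not pass. PCDHA and PCDHG members share 3′ exons, so their single values are uncertain, whereas PCDHB members are mostly 1 exon each. The summed fit called 8 of the 53 lower and 0 higher, with a median of -0.44. Without the time block 34 were lower, and with only the libraries numbered 2 or only those numbered 1, 28 and 30 were.

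The arrays differed in their place relative to Ctrl. In the 24-library fit, which shares libraries with the values above, the PCDHG median was -0.77 for SoF minus Ctrl and 0.31 for Ctrl minus wt, and the PCDHB median was -0.48 and -0.30. Over all 53 members 38 were lower in SoF than in Ctrl and 0 higher, while 6 were lower and 14 higher in Ctrl than in wt. Of all genes in that fit, 12.1% were called in either direction for SoF against Ctrl and 17.3% for Ctrl against wt.

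Protocadherin promoters share a short conserved element. The 80 bases before the start site of the 3 PCDHB genes above are shown (RefSeq, GRCh38.p14, plus strand, chr5:141187081-141187160, chr5:141213839-141213918 and chr5:141245315-141245394), because they share the letters GGCGCTGC, in capitals.
PCDHB9: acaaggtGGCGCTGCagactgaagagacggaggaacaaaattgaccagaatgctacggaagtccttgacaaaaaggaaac
PCDHB13: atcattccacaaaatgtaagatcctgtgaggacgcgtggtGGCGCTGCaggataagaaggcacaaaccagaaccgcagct
PCDHB15: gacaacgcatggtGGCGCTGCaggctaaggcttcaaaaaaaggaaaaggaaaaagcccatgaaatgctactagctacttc
Searched on both strands of 300-base promoters, and chosen after these sequences were seen, GGCGCTGC stood in 11 of 51 protocadherin promoters (21.6%) and in 4.38% of all 35116 promoters. Promoters were found for 46 of the 53 genes.

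Replication-dependent histone genes, which are transcribed in S phase to package new DNA, were lower too. Of 51 tested, 45 were lower, 2 higher, and 24 followed the line downward, whereas 13.1% of all genes were lower and 3.9% followed downward. The median log2 difference was -0.61. All 12 H2A genes, 12 of 15 H2B, 7 of 8 H3 and 11 of 12 H4 genes were lower, as were 3 of 4 H1 genes, with H1-6 the exception, which the summed fit did not call (log2 1.35, SE 0.48, with means of 0.514 and 0.190 CPM). Summed over the list, SoF held 9724 to 12190 CPM at 0 h and wt 17310 to 21490 CPM, and at 3 h SoF held 16250 to 20970 CPM and wt 22450 to 27960 CPM. The lines did not overlap at any time, although both held more at 3 h than at 1 h.

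The H4 genes went both ways, although they encode the same protein. H4C4 (chr6:26188710-26189112) held 8.87 to 17.6 CPM in the SoF libraries and 2.42 to 4.72 CPM in the wt libraries, a log2 difference of 2.05 (SE 0.13). H4C9 (chr6:27139282-27139678) held 19.3 to 62.2 CPM in SoF and 33.4 to 118.8 CPM in wt, a log2 difference of -1.23 (SE 0.13). H4C3 held 1.39 to 3.28 CPM in SoF and 3.76 to 8.53 CPM in wt (log2 -1.60, SE 0.17). H4C4 was the single H4 gene of 12 called higher, and its SoF and wt libraries did not overlap. Histone genes are near copies of each other, so reads may be shared among them. Of the 51, the summed fit called 42 lower and 1 higher, and without the time block 13 and 1.

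The promoters of H4C4 (minus strand, chr6:26189113-26189192) and H4C9 (plus strand, chr6:27139202-27139281) are shown because the genes moved in opposite directions while sharing the letters GGTCCG, in capitals.
H4C4: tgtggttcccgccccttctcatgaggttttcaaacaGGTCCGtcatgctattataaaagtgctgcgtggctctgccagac
H4C9: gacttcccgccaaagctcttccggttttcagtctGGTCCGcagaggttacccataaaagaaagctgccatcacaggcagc
These letters, also chosen after the sequences were seen, stood in all 10 H4 promoters found (100.0%). They stood in 11.3% of all promoters searched and in 15.6% of those of genes tested. The TATA letters TATAAA stood in 69.2% of the 52 promoters of the histone list. They stood in 11.5% of all promoters searched and in 7.09% of those of genes tested.

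The share of lower genes among cell cycle genes was above the 13.1% of all genes. Among protein-coding genes alone 17.5% were lower and 9.6% higher, a nearer comparison for coding lists here and below. Of 50 DNA replication and G1/S genes 13 were lower (26.0%) and 1 higher (median -0.14), led by the licensing factor CDT1 (log2 -0.66, SE 0.11), the flap nuclease FEN1 (-0.39), the polymerase subunit POLD1 (-0.49) and the sliding clamp PCNA (-0.46). Of 50 mitosis genes 11 were lower (22%) and 2 higher (median -0.11), with CDC20 (-0.53) and CDC25B (-0.45) lower and the cytokinesis factor ECT2 (0.54), which lies in the chromosome 3 windows above, higher. Of 27 p53 targets 7 were lower (25.9%) and 3 higher. Of 85 cytosolic ribosomal protein genes 15 were lower (17.6%) and 2 higher, and of 50 ribosome biogenesis factors 5 (10.0%) and 1, nearer to the share of all genes. With 1 library left out, the replication list had 8 lower without replicate 1 of wt at 0 or 2 h or replicate 2 of SoF at 0 h, the mitosis list 17 without replicate 2 of wt at 2 h, the p53 list 11 without replicate 1 of SoF at 0 h, the ribosomal protein list 7 without replicate 1 of wt at 0 h, and the biogenesis list 2 without that library and 10 without replicate 2 of wt at 0 h. In the summed fit the replication list had 2 lower, the mitosis list 3, the ribosomal protein list 1, and the p53 and biogenesis lists 0, and PCNA and FEN1 did not pass. The mitosis and ribosomal protein lists each had 1 higher there. Over all 23430 genes that fit called 539 lower and 660 higher.

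HOX and bone genes were called lower more often than the 13.1% of all genes. HOX genes, the homeobox factors that give cells positional identity, had 13 of 33 tested members lower (39.4%) and 1 higher (median -0.37), and 7 followed the line downward. The HOXA array held 7 of the 13, with HOXA5 (-0.94), HOXA10 (-0.56) and HOXA11 (-0.69), whereas 7 of 9 HOXB genes did not pass. HOXC13 (-0.68) and HOXC11 (-0.58) followed the line and HOXC5 (0.46) was higher. The noncoding neighbours HOXA11-AS (-0.79) and HOTAIR (-0.41) followed it too. In the summed fit 5 HOX genes were lower and HOXA5, HOXC5 and HOTAIR did not pass, and without the time block 2 were lower. Over all 23430 genes these fits called 539 and 495 lower.

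Of 21 osteoblast genes 7 were lower (33.3%) and 0 higher. COL1A1, the main collagen chain of bone, fell at every time (log2 -0.74, SE 0.09), with 248 to 608 CPM in SoF and 476 to 914 CPM in wt. The lines were separate within each time although the ranges over all times overlapped. SPP1, osteopontin (log2 -1.08, SE 0.25), TNFRSF11B, osteoprotegerin (-0.69), MSX1 (-0.63), BMP2 (-0.33), SPARC (-0.28) and ATF4 (-0.27) were the others, whereas the bone regulator RUNX2 did not pass (-0.22, SE 0.10). The summed fit called 3, and SPP1, BMP2, SPARC and ATF4 did not pass it. That fit called 539 of all 23430 genes lower.

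Of 44 matrix proteins, proteases and crosslinkers 17 were lower (38.6%) and 2 higher, beside 13.1% and 12.8% of all genes, with the gelatinase MMP2 (-0.57) and laminin chain LAMA3 (-0.87) lower, and LAMB3 (0.50) and TNC (0.46) higher. A single member, TIMP2 (-0.31), followed the line. Of 32 collagens 7 were lower (21.9%) and 1 higher, and of 30 integrins and cadherins 6 (20%) and 1, with ITGB4 (-0.87), ITGA4 (-0.60) and ITGA6 (-0.31) lower and the collagen receptor ITGA11 (1.18, SE 0.16) higher, each following the line. Of 20 YAP and TEAD targets 7 were lower (35.0%) and 0 higher, with MYOF (-0.38) and AMOTL2 (-0.35). In the summed fit the matrix list had 3 lower, the collagens 2, the integrins and cadherins 1 and the YAP targets 0, and TNC, TIMP2, ITGA4, ITGA6, MYOF and AMOTL2 did not pass. The matrix list and the integrins and cadherins each had 1 higher there. Over all 23430 genes that fit called 539 lower and 660 higher.

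Signalling lists had both directions, beside 13.1% lower and 12.8% higher over all genes. Among protein-coding genes alone 17.5% were lower and 9.6% higher, so the Wnt shares were near these. Shares also differed by GC content, described below. Of 42 Wnt genes 7 were lower (16.7%) and 4 higher (9.52%), with the receptors FZD8 (-0.82), FZD7 (-0.48) and FZD2 (-0.57) lower and FZD3 (0.59), a gene of the chromosome 8 run, higher. Of 23 Notch genes 6 were lower (26.1%) and 2 higher, of 44 TGF-beta and BMP genes 9 (20.5%) and 5, of 61 axon guidance genes 11 (18.0%) and 5, of 59 growth factor and kinase receptor genes 12 (20.3%) and 4, and of 29 immediate-early genes 1 (3.45%) and 2. These counts moved with 1 library. Notch had 3 lower without replicate 2 of wt at 1 or 3 h or replicate 1 of SoF at 3 h. The TGF-beta list had 3 lower without replicate 2 of SoF at 2 h and 2 higher without replicate 1 of wt at 0 h. The axon guidance list had 3 higher without replicate 2 of SoF at 0 or 2 h, and the growth factor list 2 higher without replicate 1 of wt at 2 h or of SoF at 3 h. Immediate-early genes had 7 higher without replicate 2 of wt at 0 h and 4 lower without replicate 1 of SoF at 0 h. The summed fit called lower 5 Wnt genes, 2 of the growth factor list, and 1 in each of the Notch, TGF-beta, axon guidance and immediate-early lists. It called higher 2 Wnt genes, 2 immediate-early genes, and 1 in each of the TGF-beta, axon guidance and growth factor lists. Over all 23430 genes that fit called 539 lower and 660 higher. Semaphorin SEMA3A (0.79) and its receptor NRP1 (0.42) both followed the line upward, though NRP1 did not pass the summed fit.

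Of 27 genes of the unfolded protein response, which raises folding capacity of the secretory pathway, 9 were lower (33.3%) and 3 higher (11.1%), with a median of -0.19, beside 13.1% and 12.8% of all genes. HSPA5, the main chaperone of the endoplasmic reticulum, had a mean of 309 CPM in SoF and 459 CPM in wt (log2 -0.56, SE 0.12), and SDF2L1 (-0.83), PDIA4 (-0.42), PDIA6 (-0.32) and CRELD2 (-0.47) followed the line with it. The sensors ERN1 (0.27) and EIF2AK3 (0.32) were higher. With GC and length offsets 14 were lower and 3 higher, without the time block 2 and 1, and in the summed fit 2 and 0, where PDIA4, PDIA6, CRELD2, ERN1 and EIF2AK3 did not pass. Over all 23430 genes these fits called 3071, 495 and 539 lower, in that order.

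Mitochondrially encoded transcripts, made by a polymerase of their own inside the organelle, were lower for 9 of 15 members (60.0%), beside 13.1% of all genes. MT-ND5 had 2093 to 2743 CPM in SoF and 2807 to 4416 CPM in wt, with no overlap (log2 -0.52, SE 0.09), and MT-ND4 (-0.48), MT-CO2 (-0.46) and MT-CO1 (-0.46) followed the line as well. MT-RNR1 was the single higher member (1.32, SE 0.36), with means of 0.678 and 0.260 CPM after ribosomal RNA removal. Mitochondrial genes took 3.62% to 4.93% of counts in SoF and 4.5% to 6.34% in wt. With only the libraries numbered 2, 4 were lower, and in the summed fit 3, where MT-CO1 and MT-RNR1 did not pass. Their Ctrl minus wt median was -0.25 and their SoF minus Ctrl median -0.04, in a fit that shares libraries with this one.

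Other metabolic lists ran from shares above to shares below the 13.1% of all genes called lower. Of protein-coding genes 17.5% were lower and 9.6% higher. Of 73 nuclear genes of oxidative phosphorylation 17 were lower (23.3%) and 9 higher (12.3%), and 7 followed the line upward, among them ATP5F1E (0.28) and ATP5MF (0.39). Of 37 glycolysis and hypoxia genes 11 were lower (29.7%) and 2 higher. Of 38 amino acid response genes 4 were lower (10.5%) and 3 higher, of 29 NRF2 antioxidant genes 4 (13.8%) and 2, and of 34 lysosome and autophagy genes 3 (8.82%) and 1. Of 33 genes of cholesterol and fatty acid synthesis 0 were lower and 1 was higher (LPIN1, 0.30). Without replicate 2 of SoF at 2 h, 9 of the oxidative phosphorylation and 7 of the glycolysis genes were lower. Without replicate 1 of SoF at 0 h, 9 amino acid response and 7 NRF2 genes were lower, and without replicate 2 of wt at 1 h 5 cholesterol genes and 3 lysosome genes were higher. In the summed fit glycolysis and lysosome genes each had 1 lower and the other 4 lists 0 lower. Glycolysis and amino acid response genes each had 1 higher there, and ATP5F1E, ATP5MF and LPIN1 did not pass. Over all 23430 genes that fit called 539 lower and 660 higher.

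Among genes of the GR pathway, 16% of cofactors and chaperones, 39.3% of induced and 28.6% of repressed genes were called, beside 25.9% of all genes. Of 25 cofactors and chaperones 3 were lower and 1 higher: the chaperone HSP90AA1 (-0.42, SE 0.07), the coactivator NCOA1 (-0.32, SE 0.06) and HSPA4 (-0.24) were lower and the corepressor NRIP1 (0.24) was higher. Without replicate 1 of SoF at 0 h 7 of the 25 were lower and 2 higher, and in the summed fit HSP90AA1 alone passed. It held 256 to 357 CPM in every SoF library and 361 to 464 CPM in every wt library. Of 28 glucocorticoid-induced genes 8 were higher and 3 lower (median 0.05), and of these CRISPLD2 (0.83, SE 0.14) followed the line upward and CEBPD (-0.46, SE 0.11) downward. The classic targets FKBP5 (0.09, SE 0.10) and PER1 (-0.15, SE 0.09) did not pass. BIRC3, an inhibitor of apoptosis, passed over all times (0.62, SE 0.15), but its libraries overlapped at 1 time or more. The list turned with the replicate number: the libraries numbered 1 gave 16 higher and 3 lower (median 0.32), and those numbered 2 gave 3 higher and 6 lower (median -0.10). Without replicate 1 of SoF at 3 h 5 were higher. In the summed fit 7 were higher and 0 lower, so CEBPD did not pass, and without the time block 0 of the 28 were called. The summed fit called 660 of all 23430 genes higher. Of 14 repressed inflammatory genes 2 were higher, IL11 (0.95) and MMP3 (0.95), and 2 lower, CCL2 (-0.54) and IL6 (-0.55). IL11 and CCL2 also passed the summed fit.

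Interferon-stimulated genes had 4 of 35 higher and 4 lower (11.4% each), near the 12.8% and 13.1% of all genes, with the helicase DDX60 (0.94) up and IFIT1 (-1.01) down, and antigen presentation had 2 of 16 higher (12.5%), the trimming peptidases ERAP1 (0.36) and ERAP2 (0.46). Of 19 imprinted genes 4 were higher (21.1%) and 3 lower (15.8%). NDN (-0.59) and MAGEL2 (-0.63), neighbours on chromosome 15, fell, and KCNQ1OT1 (0.77) and GNAS (0.35) rose, all following the line. Of 22 cancer-testis antigen genes 7 were lower (31.8%) and 1 higher, with MAGEA4 (-0.69) lower. The summed fit called 1 interferon gene higher and 2 lower, 0 antigen presentation genes, 2 imprinted genes each way (GNAS did not pass) and 1 cancer-testis gene each way. Over all 23430 genes that fit called 660 higher and 539 lower.

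Of 103 potassium and calcium channel genes 21 were lower (20.4%) and 12 higher (11.7%), beside 13.1% and 12.8% of all genes. KCNQ3 (-0.71) and TRPM6 (-0.81) fell, and KCNJ3 (-2.30) was lower at means of 0.158 and 0.794 CPM. Of 236 solute carriers 29 were lower (12.3%) and 25 higher (10.6%), near the shares of all genes, with 17 lower when replicate 2 of SoF at 1 h was left out. Channels in the summed fit had 5 lower and 2 higher, and carriers 1 lower and 6 higher. Over all 23430 genes that fit called 539 lower and 660 higher.

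Of 36 abundant nuclear and host long noncoding RNAs 12 were higher (33.3%) and 5 lower (13.9%), beside 12.8% and 13.1% of all genes, with ZFAS1 (0.51), PVT1 (0.51) and KCNQ1OT1 following the line and MALAT1 (0.40) and NEAT1 (0.32) called but overlapping. MIR155HG, the host of miR-155, was lower (-2.25, SE 0.33). Of 51 RNA decay and RNA-binding regulators 8 were higher (15.7%) and 3 lower (5.88%), with the exonuclease XRN1 (0.58, SE 0.07), which degrades decapped RNA from its 5′ end, following the line. Of 207 KRAB-type zinc finger genes of chromosome 19, which silence transposons, 33 were higher (15.9%) and 10 lower (4.83%). Without replicate 2 of SoF at 2 h, 16 of them and 3 of the decay genes were higher. Of 75 chromatin modifiers 11 were higher (14.7%) and 14 lower (18.7%), with ARID1B (0.45) and KMT2E (0.40) higher and KMT2B (-0.44) and RNF2 (-0.33) lower. Without replicate 2 of SoF at 0 h 7 were higher, and without replicate 2 of SoF at 2 h 9 were lower. The summed fit called 7 noncoding RNAs higher and 4 lower, 1 decay gene, 2 zinc finger genes and 3 chromatin modifiers higher with 0 lower in these last 3 lists, and MALAT1, NEAT1, KMT2B and RNF2 did not pass. Over all 23430 genes that fit called 660 higher and 539 lower.

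**Figure D4:**
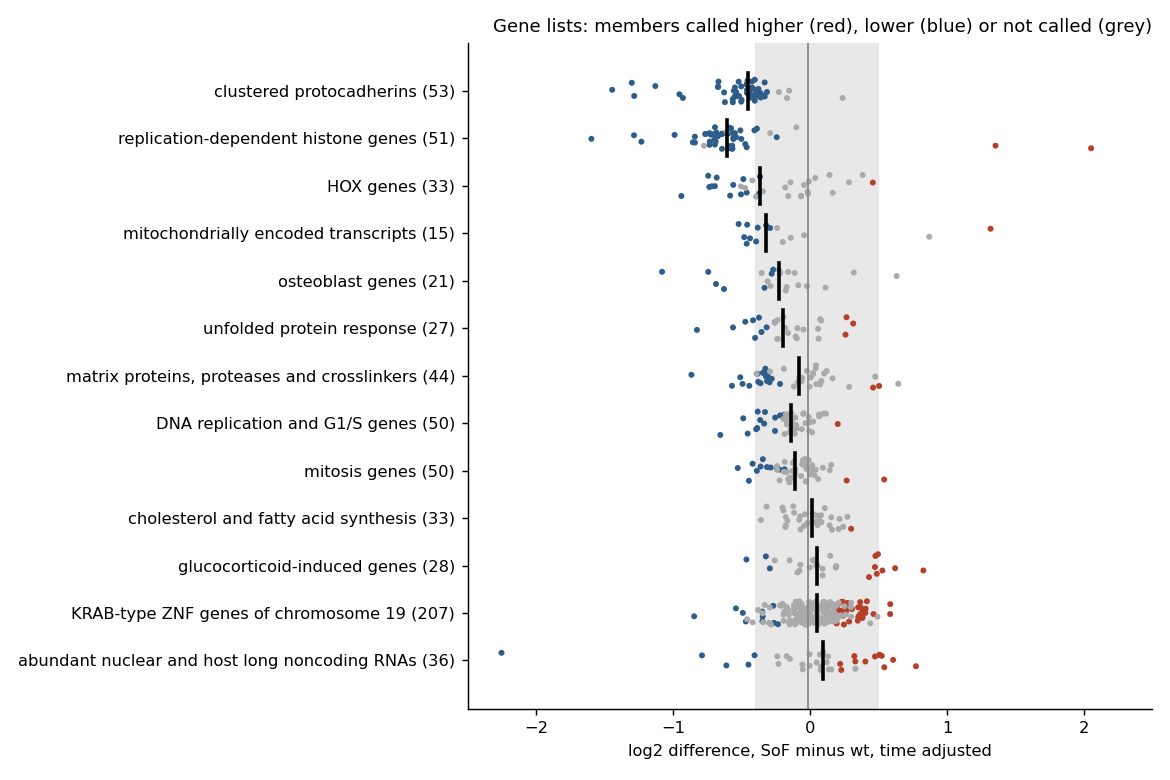
Log2 difference, SoF minus wt, time adjusted, of the tested members of 13 lists (number tested in brackets), with members called higher in red, lower in blue and not called in grey; black bars are list medians, and the grey band spans the 10th to 90th percentile of all genes tested around their median line. Protocadherins and histones sit almost wholly left of 0, at medians of -0.46 and -0.61.

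Base composition moved with the line. Genes were put in 5 equal bins by transcript GC content. In the lowest bin 21.9% were higher and 4.68% lower, and in the highest 3.79% were higher and 25.6% lower. The median log2 difference went from 0.13 to -0.19 across the bins. Genes following upward had a median GC content of 43.7% and those following downward of 52.3%. By type, 16.5% of lncRNAs were higher and 5.84% lower, against 9.6% and 17.5% of protein-coding genes. With the trends in GC content and length removed as offsets, 5865 genes were called, and the medians of the bins lay between -0.03 and -0.01. Protocadherins then had 46 lower and histones 45 lower and 1 higher, while KRAB zinc finger genes had 26 higher and 17 lower and mitosis genes 21 lower. Axon guidance genes had a median GC content of 57.4%, within the highest bin. In the fit without offsets 18.0% of them were lower, below the 25.6% of that bin. Notch genes (55.5%), collagens (55.1%) and HOX genes (55.1%) had medians in the next bin, where 16.3% were lower and 9.03% higher. Counts with offsets are not given for these lists. The part of base composition in each list's result beyond these offsets was not tested.

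**Figure D5:**
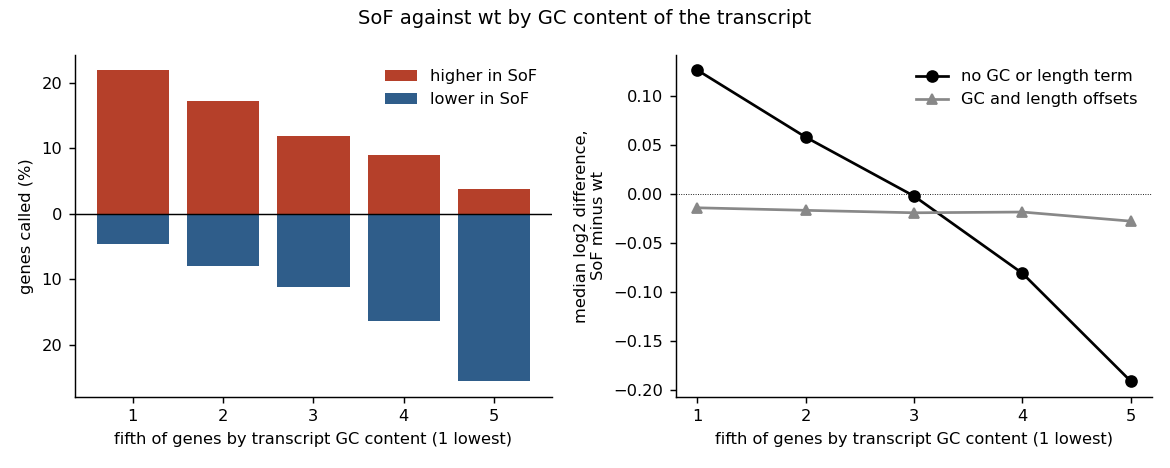
Left, percent of tested genes called higher (above 0) or lower (below 0) in SoF in each of 5 equal bins of genes by transcript GC content. Right, median log2 difference, SoF minus wt, of each bin in the fit as made and with GC and length offsets: the first falls from 0.13 to -0.19 and the second stays near 0.

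The SoF line differed from the Ctrl line as well. In the 24-library fit, 6507 genes were called for SoF against wt (27.5%), 4089 for Ctrl against wt (17.3%) and 2870 for SoF against Ctrl (12.1%), and these comparisons share libraries. Of the 914 following higher genes 341 were also higher in SoF than in Ctrl, and of 910 following lower genes tested there 288 were lower. The following higher genes had a median of 0.57 for SoF minus wt, 0.27 for SoF minus Ctrl and 0.27 for Ctrl minus wt. The following lower genes had medians of -0.46, -0.20 and -0.25. ZNF597, ENOSF1 and LINC01029 can be set beside GLUL here: ENOSF1 had a log2 difference of 2.35 for SoF minus Ctrl and 0.11 for Ctrl minus wt, LINC01029 of 1.56 and -0.07, and GLUL of -0.96 and -2.34.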

How the data were processed

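Newly made RNA of the SoF and wt lines was analysed in 16 libraries, with the 8 Ctrl libraries in a second fit. The authors extracted molecular identifiers with UMI-tools 1.1.2, trimmed with Trim Galore 0.6.6, aligned to hg38 with STAR 2.7.3a, removed duplicate molecules and counted exon reads with featureCounts on GENCODE 39. The deposited values are these raw counts per gene, in whole numbers; the table's title alone states stranded counting. Symbols, types and positions came from GENCODE 44 (61369 of 61533 identifiers matched).

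Genes were kept by filterByExpr (minimum count 10, total 15) and tested with edgeR 4.0.16 (limma 3.58.1, R 4.3.3; TMM, quasi-likelihood F test, Benjamini-Hochberg, called under 0.05) on time and line. The standard error is the absolute log2 difference divided by the square root of F. The study's own fit ignored time. A fit of 8 groups gave single times and the line by time test. DESeq2 1.42.0 was the other tool. CPM values are TMM scaled. The script was tested on simulated data.

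Named genes were NR3C1, the 12 higher and 12 lower genes of largest change that followed the line with a mean of at least 5 CPM (NR3C1 counts in both), the 4 called members of smallest p of each list, the 3 genes of smallest p in the line by time test, and 4 genes the study names (HMBOX1, SARAF, DCTN6, LINC01029). Window genes, the chromosome 8 run and other members named were chosen after their values were seen. The members and the 40 lists were chosen with earlier results of these data known. Alternatives were scaling, filter, tool, blocks, time term, libraries left out, GC and length offsets, and counts summed over times by line and replicate number, the last pair added after seeing the data.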

Additional observations from a re-analysis of the deposited data

How the results depend on the processing

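No named gene changed direction under the alternatives run, whereas the median of the glucocorticoid-induced list did, and the main count of calls stayed within 1.5 times except without the time term (1142 genes, and 803 following the line, where the spread includes the time effect) and with counts summed over times by line and replicate number (1199 genes, from 2 series against 2). Leaving out 1 library gave 4454 to 6809 calls and 1833 to 2562 following genes, and an NR3C1 log2 difference of 1.75 to 1.89. With all libraries numbered 1 left out 4917 genes followed the line, and with all numbered 2 left out 4192, since 1 library a side is then compared at each time.

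Calls at single times were unstable. At 0, 1, 2 and 3 h they were 324, 170, 221 and 90 with DESeq2, 1012, 510, 647 and 242 without the low-count filter, 576, 155, 226 and 82 with a replicate block, and 1603, 575, 775 and 146 with a replicate block by time. A stricter filter gave 49 at 0 h, and the line by time test gave 31 without a filter. Leaving out 1 library gave 17 to 2286 at 0 h, 13 to 116 at 1 h, 16 to 200 at 2 h and 10 to 63 at 3 h, and 0 for the line by time test; 2210 to 3891 for SoF against Ctrl. The cause was not tested.

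Replicate numbers correlated between lines at 0 h (r = 0.401) and 1 h (0.154) but not at 2 h (0.0437) and 3 h (0.0631), so they were not taken to pair the lines. Within SoF they correlated between times in 5 of 6 pairs at over 0.1, which the summed counts allow for. The replicate block gave 7056 calls and the block by time 7884, and 7366 with GC and length offsets as well. Neither block without offsets changed a call among the 175 named genes other than NR3C1. Of these, 90 lost their call without the time term, 73 with the summed counts, 18 and 19 without all libraries numbered 1 or 2, 17 with GC and length offsets, 14 with the block by time and offsets, 10 without the 0 h libraries, and 2 to 7 when 1 library was left out. In lists with 3 or fewer called members in 1 direction, that number stayed within 0 to 5 when 1 library was left out, except 7 for immediate-early genes called higher and 7 for receptor cofactors called lower.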
